A study of Mus musculus with 6 samples.

Results

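The genes described here are the VEGF and angiopoietin ligands and their tyrosine kinase receptors, 10 of the 33460 genes listed in the deposited RNA-seq files. The rule takes them by name and sets no threshold on measured values. They comprise 5 ligands (*Vegfa*, *Vegfb*, *Vegfc*, *Angpt1* and *Angpt2*) and 5 receptors (*Kdr*, *Flt1*, *Flt4*, *Tek* and *Tie1*). All samples came from the brains of NG2-DsRed/Pdgfrb-eGFP mice at postnatal day 6, in which the NG2 promoter drives a red and the *Pdgfrb* promoter a green fluorescent reporter. The study compared 3 libraries of FACS sorted double positive cells (mural cells, the pericytes (PC) and smooth muscle cells of the vessel wall) with 3 libraries of microvascular fragments, which were captured with an antibody to the endothelial antigen CD31 and contain both endothelial cells (EC) and mural cells. Each of 3 brains was divided along the midline, with one side sorted and the other used for the fragments. The fragments thus carry both reporters as well, and mural cells with little DsRed may be missed by the sort. Either reporter alone also labels other neural cells, and only double positive cells were taken.

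VEGF ligands bind receptor tyrosine kinases on EC. *Kdr* encodes VEGFR2, the main signalling receptor for VEGF-A, *Flt1* encodes VEGFR1, which binds VEGF-A and VEGF-B and also exists as a soluble form, and *Flt4* encodes VEGFR3, the receptor for VEGF-C. The angiopoietins act on the EC receptor TIE2, encoded by *Tek*. Angiopoietin-1 is its agonist and stabilizes vessels, angiopoietin-2 is a context dependent antagonist known from vessel sprouting and regression, and *Tie1* encodes a related receptor that modulates TIE2. Angiopoietin-1 is known as a signal from perivascular cells to EC.

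Values are FPKM, fragment numbers scaled to gene length and to the size of the library, and were already close to a common scale between libraries. On protein-coding genes the values stood for approximately 5.42 to 6.02 M fragments in the fragment libraries and 1.05 to 2.34 M in the mural cell libraries, so that low values are less precise in mural cells. The sorted libraries carried the markers of their label. All 12 mural markers were higher there (median ratio of mean FPKM 9.10), among them *Pdgfrb* and *Cspg4*, the genes behind the reporters. They also carried EC genes, since the 12 EC markers had a median ratio of 0.65, *Pecam1* (encoding CD31) had an FPKM of 234 ± 34.0 (SD, n = 3) against 371 ± 6.74 (SD, n = 3) in the fragments, and *Cldn5*, a tight junction gene of brain EC, had 489 ± 94.3 against 602 ± 61.5 (SD, n = 3 each). Mural cell replicate 3 stood apart in the sum of astrocyte markers, with an FPKM of 614 for 8 genes against 166 and 144 in replicates 1 and 2 and 220 to 307 in the fragments. Of these genes, *Gjb6* (0 against 2.43 and 1.41 in mural cell replicates 1 and 2) and *S100b* (1.98 against 2.64 and 3.14) were lowest there.

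To compare sorted cells with fragments, log2(FPKM + 1) was tested with limma across the 14801 genes that reached 1 FPKM in 3 or more libraries. The log2 fold change (log2FC) is on this scale, which understates the change of low genes, and SE is its standard error. A gene was called when its Benjamini-Hochberg adjusted p was under 0.05, and the 2-fold limit that the study used was counted separately. All 10 genes passed the filter on low values. Of these, 2 were higher and 4 were lower in mural cells, where 9.34% of all genes tested were called higher and 13.0% lower. With the 2-fold limit, 2 genes were higher and 1 was lower, against 6.43% and 10.1% of all genes. Both genes that rose, *Angpt1* and *Angpt2*, are ligands. The genes that fell were the ligand *Vegfc* and the receptors *Tek*, *Flt4* and *Kdr*. The median log2FC was 0.84 for the 5 ligands, whose range was -2.66 to 2.11, and -0.47 for the 5 receptors, whose range was -0.80 to -0.36, against -0.12 for all genes tested. The ligands thus spread to both sides, whereas every receptor had a lower mean in mural cells. The share of all genes tested whose groups did not overlap was not counted, so a lack of overlap is given below as a description of single genes only.

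**Figure D1:**
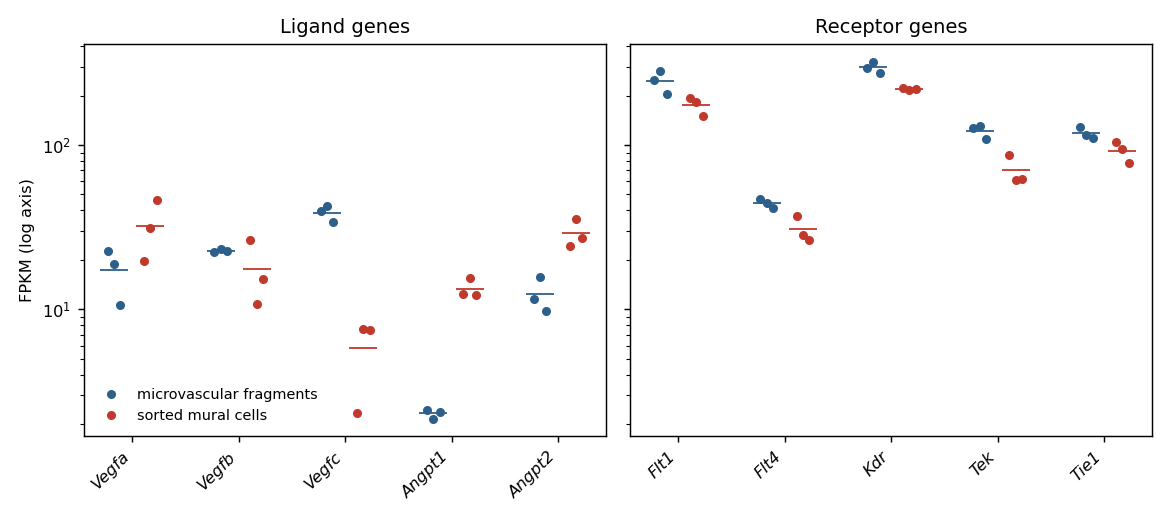
FPKM of the 5 ligand genes (left) and the 5 receptor genes (right) on a log axis, with 1 point per library (blue, microvascular fragments; red, sorted mural cells) and a horizontal bar at the mean of 3 libraries. *Angpt1* lies between 2.16 and 2.43 in fragments and between 12.2 and 15.6 in mural cells, and *Vegfc* lies the other way. Every receptor has a lower mean in mural cells, and of these *Tek*, *Flt4* and *Kdr* were called.

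*Angpt1* (ENSMUSG00000022309, chromosome 15 of NCBIM37, 42256273 to 42508523, minus strand) had the largest increase of the 10 genes. Its FPKM was 12.4, 15.6 and 12.2 in mural cell replicates 1, 2 and 3 against 2.43, 2.16 and 2.39 in the fragments. The groups did not overlap, and the spread within each was small. The mean was 13.4 ± 1.90 (SD, n = 3) against 2.32 ± 0.146 (SD, n = 3), a ratio of 5.75 and a log2FC of 2.11 (SE 0.22, limma adjusted p = 7.2e-04). *Angpt1* has 1 annotated transcript, so the fragments behind each value could be estimated as approximately 88, 48 and 40 in mural cells against 45, 37 and 46 in microvascular fragments. In a mixed sample, a lower value can mean fewer cells that express the gene or less RNA per cell, and these cannot be told apart here. In the fragments *Angpt1* was the lowest of the 10 genes, above only 13.0% of all genes tested, and in mural cells it was above 52.7% of them.

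*Angpt2* (ENSMUSG00000031465, chromosome 8, 18690263 to 18741562, minus strand), the other ligand of TIE2, was also higher in sorted cells. Its FPKM was 24.3, 35.6 and 27.2 in the mural cell replicates against 11.6, 15.8 and 9.79 in the fragments, again with no overlap. The mean was 29.0 ± 5.85 (SD, n = 3) against 12.4 ± 3.09 (SD, n = 3), a ratio of 2.34 and a log2FC of 1.17 (SE 0.23, limma adjusted p = 0.0099). Without a filter on low values its adjusted p was 0.055. The annotation places *Angpt2* inside *Mcph1*, a gene on the opposite strand, and whether the authors counted by strand is not given in the sources used here. *Mcph1* had an FPKM of 3.39 to 6.29 in mural cells and 7.88 to 8.85 in fragments, the opposite direction. *Angpt1* overlaps the non-coding gene *Gm17473* on the opposite strand, which was not analysed here.

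Neither angiopoietin reached the ratio of the mural markers, which ranged from 6.47 to 12.5. Markers of fibroblasts, cells that also lie around larger vessels, moved in the same direction. Of the 8 genes listed, 7 were tested and all 7 were higher in sorted cells, with a median ratio of 7.33. Past the 2-fold limit there were 5, and *Pdgfra* and *Fbln1* had ratios of only 1.59 and 1.62. The summed FPKM was 536 to 717 against 86.6 to 92.1 in fragments. *Dpt*, the gene not tested, was listed at 0 in every fragment library and in mural cell replicates 2 and 3. The part of fibroblast RNA in the angiopoietin values was not tested. Mural cells themselves produce collagens, so that *Col1a1*, *Col1a2* and *Col3a1* in this list are not particular to fibroblasts.

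*Vegfc* (ENSMUSG00000031520, chromosome 8, 55162886 to 55271808, plus strand) showed the opposite picture. Its FPKM was 2.35, 7.62 and 7.47 in mural cell replicates 1, 2 and 3 against 39.8, 42.7 and 33.8 in the fragments. The highest mural cell library was far below the lowest fragment library. The mean was 5.81 ± 3.00 (SD, n = 3) against 38.8 ± 4.49 (SD, n = 3), 6.67-fold lower in mural cells, with a log2FC of -2.66 (SE 0.37, limma adjusted p = 0.0024). The mural cell values rest on approximately 7, 10 and 10 fragments, against 269 to 306 in the microvascular libraries, so that counting error is large there. Its rank changed with it, since *Vegfc* was above 82.0% of all genes tested in fragments and above 32.2% in mural cells.

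The decrease of *Vegfc* exceeded that of every EC marker, of which *Ly6c1* had the lowest ratio, 0.35, against 0.15 for *Vegfc*. Markers of microglia and macrophages fell further. All 8 of these markers were lower in sorted cells, with a median ratio of 0.085 and a summed FPKM of 147 to 199 against 1836 to 2166. Of 4 genes tested from a list of lymphatic EC markers, *Prox1*, *Lyve1* and *Reln* were lower. *Lyve1*, which is also found on perivascular macrophages, had an FPKM of 1.64, 1.12 and 0 in mural cells against 10.1, 16.6 and 19.1 in fragments. The presence of lymphatic EC, and the part of any of these cells in the *Vegfc* values, were not tested.

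*Vegfa* (ENSMUSG00000023951, chromosome 17, 46153942 to 46169326, minus strand) did not pass the test. Its FPKM was 19.6, 31.1 and 46.0 in mural cell replicates 1, 2 and 3 against 22.6, 18.8 and 10.6 in the fragments. The groups overlapped, since mural cell replicate 1 was below fragment replicate 1. The mean was 32.2 ± 13.3 (SD, n = 3) against 17.3 ± 6.10 (SD, n = 3), with a log2FC of 0.84 (SE 0.36, 95% interval -0.02 to 1.69, limma adjusted p = 0.15). The highest value was in the library with the highest sum of astrocyte markers, and astrocytes are a known source of VEGF-A. Without mural cell replicate 3 the ratio was 1.46 in place of 1.86, and the log2FC was 0.55 (adjusted p = 0.31). The 7 oligodendrocyte progenitor markers also had their highest sum in replicate 3, an FPKM of 196 against 67.8 and 54.7 in mural cell replicates 1 and 2. Highest there were *Ptprz1* (108 against 20.8 and 20.3) and *Cspg5* (38.4 against 11.8 and 5.13). So were *Olig1* (15.5 against 10.3 and 6.13), *Olig2* (10.2 against 5.29 and 3.00) and *Gpr17* (9.65 against 4.62 and 4.30). In contrast, *Sox10* was lowest there (1.09 against 3.13 and 2.87) and *Pdgfra* was similar (13.2 against 11.9 and 12.9). None of the 8 astrocyte markers was called in the comparison, and the part of these cells in the *Vegfa* values was not tested. The annotation lists 14 transcripts of *Vegfa*, and its isoforms were not separated.

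*Vegfb* (ENSMUSG00000024962, chromosome 19, 7056963 to 7062141, minus strand) was not called either. It was almost constant in fragments, with an FPKM of 22.3, 23.4 and 22.5, and varied in mural cells, with 26.4, 10.8 and 15.3. The mural cell values surrounded the fragment values. The log2FC was -0.45 (SE 0.29, 95% interval -1.14 to 0.24, limma adjusted p = 0.33). Mural cell replicate 1, the deepest of the sorted libraries, and replicate 2 moved this value in opposite directions. In limma the log2FC was -0.78 without replicate 1 (adjusted p = 0.035, past the threshold) and -0.17 without replicate 2 (adjusted p = 0.65). Replicates 2 and 3 stand for approximately 9 and 13 fragments of *Vegfb*.

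**Figure D2:**
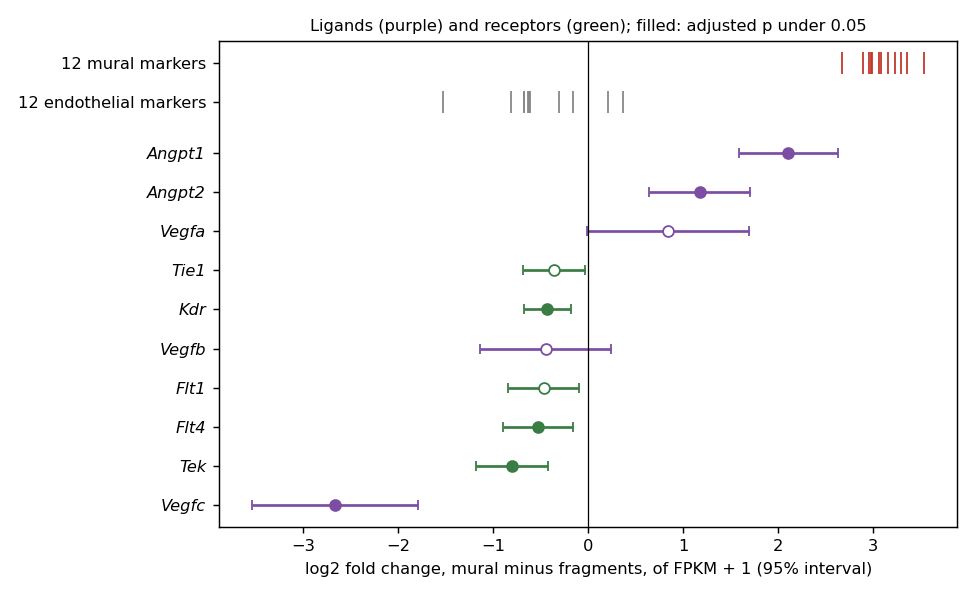
Log2 fold change of FPKM + 1 (mural cells minus fragments) for each gene with its 95% interval from limma, ligands in purple and receptors in green, with filled points for an adjusted p under 0.05. Ticks at the top are the single genes of the 12 endothelial and 12 mural marker lists, and the 5 receptors (-0.80 to -0.36) lie within the range of the endothelial ticks, whereas *Angpt1* and *Angpt2* lie between both lists and *Vegfc* lies below both.

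The receptor *Tek* (ENSMUSG00000006386, chromosome 4, 94405980 to 94541667, plus strand) fell most among the receptors. Its FPKM was 86.5, 61.5 and 62.5 in mural cells against 126, 131 and 109 in fragments, with no overlap. The mean was 70.1 ± 14.2 (SD, n = 3) against 122 ± 11.4 (SD, n = 3), a ratio of 0.57 and a log2FC of -0.80 (SE 0.16, limma adjusted p = 0.012). The adjusted p was 0.053 without fragment replicate 1, 0.056 without fragment replicate 2 and 0.064 without a filter on low values. *Tie1* (ENSMUSG00000033191, chromosome 4, 118143796 to 118162666, minus strand) had an FPKM of 104, 94.0 and 77.6 in mural cells against 128, 115 and 110 in fragments. The groups did not overlap, but the log2FC of -0.36 (SE 0.14, 95% interval -0.69 to -0.03) did not pass the adjusted threshold (limma adjusted p = 0.11).

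Among the VEGF receptors, *Kdr* (ENSMUSG00000062960, chromosome 5, 76328852 to 76374483, minus strand) had the highest level of all 10 genes in both groups. Its FPKM was 224, 216 and 221 in mural cells against 296, 321 and 276 in fragments. The mural cell libraries differed little from each other and all were below the fragments. The mean was 220 ± 4.002 (SD, n = 3) against 298 ± 22.6 (SD, n = 3), a ratio of 0.74 and a log2FC of -0.43 (SE 0.11, limma adjusted p = 0.024). *Flt4* (ENSMUSG00000020357, chromosome 11, 49422765 to 49466241, plus strand) had an FPKM of 36.9, 28.5 and 26.5 in mural cells against 47.0, 44.2 and 41.6 in fragments, a ratio of 0.69 and a log2FC of -0.53 (SE 0.16, limma adjusted p = 0.048). *Flt1* (ENSMUSG00000029648, chromosome 5, 148373180 to 148537587, minus strand) had 194, 184 and 150 in mural cells against 249, 283 and 204 in fragments, a ratio of 0.72. Its groups did not overlap, and its log2FC of -0.47 (SE 0.16, 95% interval -0.85 to -0.09) did not pass the adjusted threshold (limma adjusted p = 0.077). The annotation lists 5 transcripts for *Flt1*, and the membrane bound and soluble receptors were not separated.

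The calls of *Kdr* and *Flt4* depended on the libraries and settings used. Over 14 alternatives *Kdr* passed in 7, with an adjusted p of 0.021 to 0.092, and *Flt4* passed in 3, with 0.017 to 0.16. Both were lost in a paired fit with the replicate block (limma, adjusted p = 0.057 for *Kdr* and 0.055 for *Flt4*), whereas *Flt1* then passed (adjusted p = 0.045). The adjusted p of *Kdr* was 0.086 without fragment replicate 1, 0.088 without fragment replicate 2, 0.062 without mural cell replicate 2 and 0.058 without mural cell replicate 3. For *Flt4* it lay between 0.098 and 0.16 without fragment replicate 1, 2 or 3 or mural cell replicate 2 or 3. No alternative turned the direction of any of the 10 genes.

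*Tek* and *Kdr*, receptors that fell, are shown with the sequence before their transcription start, together with *Vegfc*, the ligand that fell. The window of *Flt4*, which also fell, lies inside its annotated gene and is not printed. The sequences are the 250 bases before the RefSeq start (from the RefSeq annotation of build GRCm38.p6), each with a single exact match in NCBIM37, at chr4:94405730-94405979 on the plus strand for *Tek*, chr5:76374481-76374730 on the minus strand for *Kdr* and chr8:55162636-55162885 on the plus strand for *Vegfc*. They are written 5′ to 3′ on the strand of the gene. Capitals mark GGAA, the core letters bound by ETS transcription factors, or its reverse complement TTCC.
*Tek*: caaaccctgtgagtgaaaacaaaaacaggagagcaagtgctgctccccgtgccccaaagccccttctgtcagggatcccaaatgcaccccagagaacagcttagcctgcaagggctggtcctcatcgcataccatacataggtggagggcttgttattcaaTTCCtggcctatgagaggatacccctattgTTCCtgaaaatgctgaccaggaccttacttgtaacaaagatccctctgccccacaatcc
*Kdr*: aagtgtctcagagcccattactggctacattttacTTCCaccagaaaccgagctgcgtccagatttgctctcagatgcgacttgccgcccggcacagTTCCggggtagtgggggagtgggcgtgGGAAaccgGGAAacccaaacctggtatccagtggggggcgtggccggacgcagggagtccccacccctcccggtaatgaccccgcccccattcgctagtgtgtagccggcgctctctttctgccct
*Vegfc*: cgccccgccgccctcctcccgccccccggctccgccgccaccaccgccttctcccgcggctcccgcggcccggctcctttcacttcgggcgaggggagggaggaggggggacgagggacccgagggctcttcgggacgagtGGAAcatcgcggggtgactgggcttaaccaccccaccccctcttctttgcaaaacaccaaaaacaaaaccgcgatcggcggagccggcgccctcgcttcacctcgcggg

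Entries were found for 8 of the 10 genes, and *Angpt1* and *Angpt2* were not among them. GGAA was counted on both strands of the same window. It occurred 2 times before *Tek*, 4 times before *Kdr* and 1 time before *Vegfc*. It occurred 4 times before *Flt1* and 1 time before *Vegfb*, 2 times in the window of *Flt4* and 7 times in that of *Tie1*. The *Vegfa* window at its gene start held 6 matches, and another inside the gene held 2. Of 32536 mouse promoter windows of this length, 93.4% hold at least 1 such match and the median is 3. At least 7 matches, as in the *Tie1* window, are found in 3.82% of them, at least 6 in 8.7% and at least 4 in 33.5%. Most of the *Tie1* window lies inside its annotated gene, as does all of the *Flt4* window. The letters describe the windows only, and binding was not measured.

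Of the 12 EC markers, 7 were lower in mural cells and none was higher, with ratios from 0.35 to 1.29 and a summed FPKM of 1551 to 2056 against 2120 to 2533. The receptors were next set against these markers in the same library, a measure that depends little on the scale between libraries for genes with high values. For low genes the added 1 still matters. With a pseudocount of 0.1 the difference was 2.98 in place of 2.61 for *Angpt1* and -2.37 in place of -2.16 for *Vegfc*. The mean log2(FPKM + 1) of the 12 EC markers was 6.94, 6.70 and 6.43 in mural cells against 7.31, 7.27 and 7.01 in fragments. Relative to this mean, *Flt4* had a log2 value of -1.72 ± 0.088 (SD, n = 3) in mural cells against -1.70 ± 0.091 (SD, n = 3) in fragments. *Kdr* had 1.09 ± 0.25 against 1.02 ± 0.10, and *Flt1* had 0.77 ± 0.091 against 0.73 ± 0.12 (SD, n = 3 each). For these 3 receptors the groups overlapped, and the differences of -0.02, 0.07 and 0.03 were smaller than the spread between libraries (exact two-sided permutation test, p = 0.8, 0.9 and 0.9, among 10 genes compared). *Tie1* differed by 0.14, with overlap (exact permutation p = 0.2).

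*Tek* was lower in mural cells on this measure too, with -0.56 ± 0.16 in mural cells against -0.26 ± 0.053 in fragments (SD, n = 3 each). The difference of -0.30 had no overlap (exact permutation p = 0.1, the smallest that 3 samples against 3 allow). The choice of reference moved these values, since with *Pecam1* and *Cdh5* alone *Tek* differed by -0.13 and the other receptors by 0.14 (*Flt4*) to 0.31 (*Tie1*). The angiopoietins and *Vegfc* also kept apart on this measure, with differences of 2.61 for *Angpt1*, 1.68 for *Angpt2* and -2.16 for *Vegfc* (each exact permutation p = 0.1). *Vegfa* did not overlap here, with -2.58, -1.70 and -0.88 in mural cells against -2.75, -2.97 and -3.47 in fragments (log2 difference 1.34, exact permutation p = 0.1). Its lowest mural cell library was close to its highest fragment library, and without mural cell replicate 3 the difference was 0.92. *Vegfb* differed by 0.06 (exact permutation p = 0.9). No test of this size could pass 0.05.

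**Figure D3:**
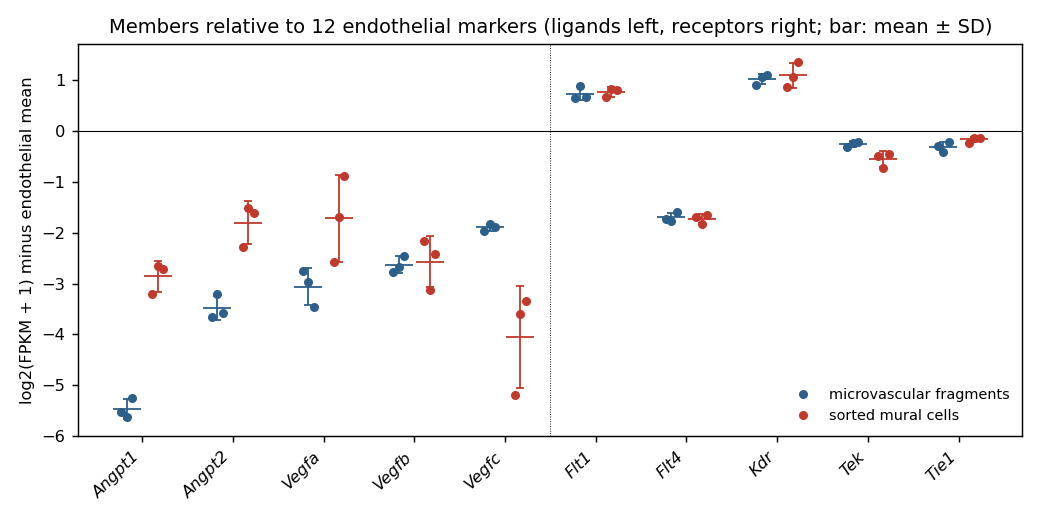
Log2(FPKM + 1) of each gene minus the mean of 12 endothelial markers in the same library, with ligands left and receptors right of the dotted line, points for the 3 libraries per group (blue, fragments; red, mural cells) and bars for the mean ± SD. *Flt1*, *Flt4* and *Kdr* differ between groups by at most 0.07, whereas *Angpt1* differs by 2.61 and *Vegfc* by -2.16.

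Ligands were then compared with receptors within each library. The quotient of *Angpt1* to *Tek* was 0.143, 0.253 and 0.195 in mural cells against 0.0193, 0.0165 and 0.0218 in fragments. Every mural cell library was above every fragment library, and the difference was 2.91 on the log2 scale of FPKM + 1. The quotient of *Angpt2* to *Tek* was 0.281, 0.579 and 0.435 against 0.0919, 0.121 and 0.0896 (log2 difference 1.98). *Angpt2* exceeded *Angpt1* in each library, 1.97-, 2.29- and 2.23-fold in mural cells and 4.77-, 7.33- and 4.10-fold in fragments. The balance of the 2 ligands thus lay closer to *Angpt1* in sorted cells (log2 difference -0.93). The quotient of *Tie1* to *Tek* was 1.20, 1.53 and 1.24 in mural cells against 1.02, 0.882 and 1.00 in fragments (log2 difference 0.44). None of these 4 pairs overlapped between the groups (each exact permutation p = 0.1, among 10 pairs compared).

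Among the VEGF pairs, the quotient of *Vegfc* to its receptor gene *Flt4* was 0.0637, 0.268 and 0.282 in mural cells against 0.845, 0.965 and 0.815 in fragments (log2 difference -2.13). The quotient of *Vegfa* to *Kdr* was 0.0876, 0.144 and 0.209 against 0.0762, 0.0585 and 0.0386 (log2 difference 1.27), and *Vegfa* to *Flt1* gave a log2 difference of 1.31. These 3 pairs did not overlap, and each had an exact permutation p of 0.1. The remaining pairs overlapped. *Vegfb* to *Flt1* differed by 0.02 (exact permutation p = 1), *Flt1* to *Kdr* by -0.04 (exact permutation p = 0.7) and *Flt4* to *Kdr* by -0.10 (exact permutation p = 0.6). *Flt4* to *Kdr* rested on single libraries, with -0.22 without mural cell replicate 1 and -0.00082 without replicate 3. The *Flt1* to *Kdr* quotient was 0.801 ± 0.103 in mural cells against 0.820 ± 0.0742 in fragments (SD, n = 3 each).

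**Figure D4:**
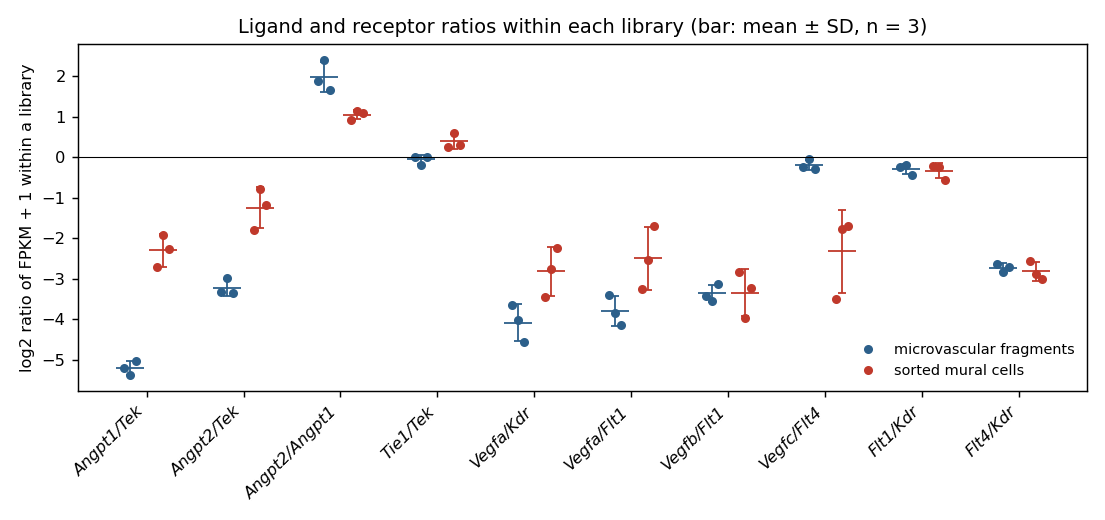
Log2 ratio of FPKM + 1 of 10 gene pairs within each library (blue, fragments; red, mural cells), with bars for the mean ± SD of 3 libraries. The pairs of *Angpt1* and *Angpt2* with *Tek* lie higher in mural cells, by 2.91 and 1.98, *Vegfc* with *Flt4* lies lower by 2.13, and the pairs of *Flt1* and *Flt4* with *Kdr* overlap between the groups.

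Since FPKM is a value per length, levels can also be ordered between genes. In mural cells the order of mean FPKM was *Kdr*, *Flt1*, *Tie1*, *Tek*, *Vegfa*, *Flt4*, *Angpt2*, *Vegfb*, *Angpt1* and *Vegfc*. The libraries of *Tie1* and *Tek* overlapped, as did each pair of neighbours from *Vegfa* to *Angpt1*, while the other neighbours were separate. In fragments the order was *Kdr*, *Flt1*, *Tek*, *Tie1*, *Flt4*, *Vegfc*, *Vegfb*, *Vegfa*, *Angpt2* and *Angpt1*. There *Kdr* and *Flt1*, *Tek* and *Tie1*, *Flt4* and *Vegfc*, *Vegfb* and *Vegfa*, and *Vegfa* and *Angpt2* overlapped. *Kdr* stood above 98.7% of all genes tested in mural cells and above 99.3% in fragments. *Vegfc* was thus the highest of the 5 ligands in fragments and the lowest in mural cells. These are levels of whole libraries, and the sorted libraries also carried EC genes. The part of EC RNA in the receptor values of the sorted libraries was not tested.

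Other genes of the pathways were examined with a list of 31 genes under 32 symbols (*Figf* and *Vegfd* name the same gene), of which 30 were tested. Of these, 4 were higher and 8 were lower in mural cells, and 18 did not pass, where 9.34% of all genes tested were higher and 13.0% lower. With the 2-fold limit 1 was higher and 4 were lower, against 6.43% and 10.1% of all genes. The median log2FC was -0.09, against -0.12 for all genes tested.

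Among the remaining ligands, *Pgf*, which encodes placental growth factor, a ligand of VEGFR1, had the largest increase. Its FPKM was 25.3, 36.9 and 33.1 in mural cells against 4.26, 3.58 and 3.26 in fragments, with no overlap. The ratio was 8.58 and the log2FC 2.79 (SE 0.21, limma adjusted p = 2.1e-04), which is within the range of the mural markers. *Figf*, which encodes VEGF-D, was at the limit of detection, with a mean FPKM of 1.21 in mural cells and 0.91 in fragments, and *Angpt4* was not tested. Of the co-receptors, *Nrp2*, which takes part in VEGF-C signalling, fell to a ratio of 0.59 (FPKM 37.7, 34.6 and 34.0 against 63.4, 59.0 and 58.5; limma adjusted p = 0.0032). *Nrp1*, which binds VEGF-A, had a log2FC of -0.07 (95% interval -0.35 to 0.21, limma adjusted p = 0.71), with an FPKM of 74.9 ± 4.72 and 78.9 ± 7.95 (SD, n = 3 each). *Svep1*, *Ccbe1* and *Adamts3*, which encode proteins of the VEGF-C pathway outside the cell, had an FPKM under 5 in every library and were not called. *Ptprb*, the EC phosphatase that restrains TIE2, fell to a ratio of 0.56 (adjusted p = 0.013), close to that of *Tek*.

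Of the genes downstream, *Grb10* (ratio 1.67, adjusted p = 0.0051) and *Pik3r1* (ratio 1.62, adjusted p = 0.017), which encode an adaptor and a regulatory subunit of phosphoinositide 3-kinase, were higher in mural cells in limma. *Epas1*, which encodes the hypoxia inducible factor HIF-2α, was higher with a ratio of 1.41 (adjusted p = 0.030). *Hif1a*, *Egln1* and *Egln3* of the same oxygen sensing pathway had ratios of 1.10, 1.06 and 1.01 and were not called. The EC genes *Dll4* (ratio 0.69, adjusted p = 0.036), *Nos3* (0.66, adjusted p = 0.021) and *Sox17* (0.47, adjusted p = 0.0045) were lower in mural cells. The largest decreases called were those of the transcription factor genes *Egr3* (0.084, adjusted p = 0.0011), *Klf4* (0.22, adjusted p = 6.0e-04) and *Klf2* (0.26, adjusted p = 0.0045), which are also known to respond to cell dissociation and flow. *Esm1*, a VEGF target of EC, had a ratio of 0.26 and was not called (adjusted p = 0.056), with an FPKM of 1.19, 1.42 and 0 in mural cells against 3.11, 4.36 and 2.72 in fragments. The 2 groups were prepared by different protocols, and this cannot be told apart from the cell type.

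**Figure D5:**
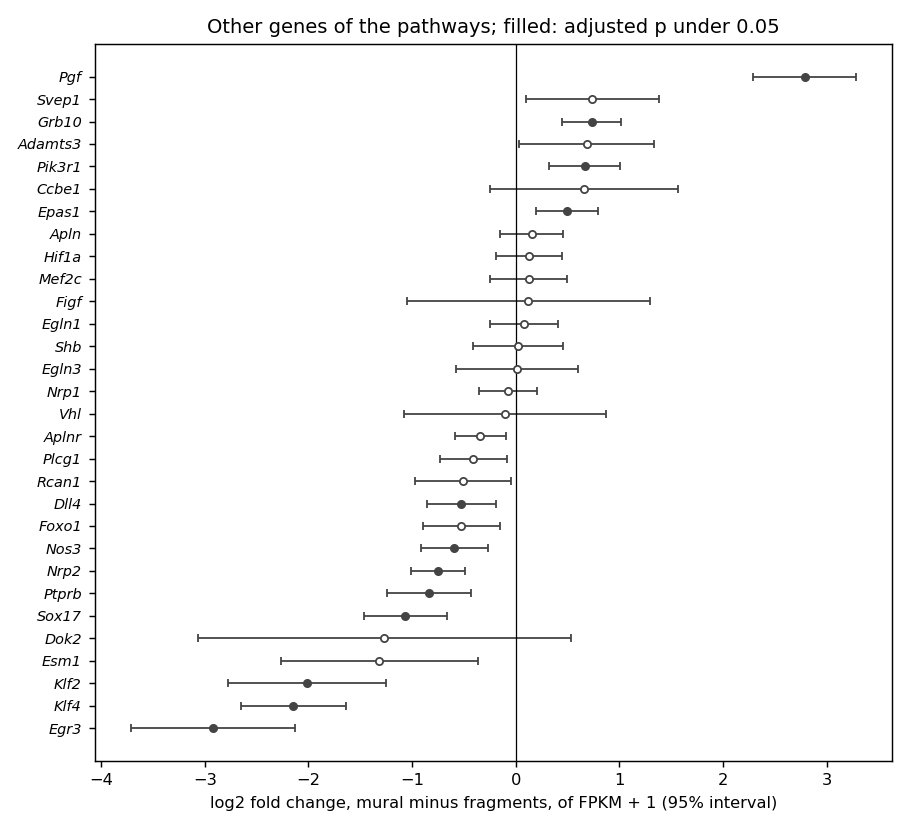
Log2 fold change of FPKM + 1 (mural cells minus fragments) of the 30 tested genes of the pathway list with 95% intervals from limma, filled for an adjusted p under 0.05. *Pgf* stands apart at 2.79, and *Egr3*, *Klf4* and *Klf2* have the lowest values, -2.92, -2.15 and -2.01.

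Finally, the genes most like each of the 10 were found by the root mean square difference of log2(FPKM + 1) over the 6 libraries, with each gene centred on its mean. The nearest genes to *Angpt1* were *A4galt* (difference 0.07) and *Klhl23* (0.08), both higher in mural cells with log2FC values of 2.18 and 1.97. The nearest to *Angpt2* were *E030013I19Rik* and *Lamb2*, a laminin chain gene (0.10 and 0.11). *Tek* was nearest to *Abcc4*, *Kdr* to *Mll2*, *Flt1* to *Card10*, *Flt4* to *Pigu* and *Tie1* to *Gars*, all within 0.05, and the second genes were *Kif26a*, *Cd2ap*, *Slfn5*, *Pikfyve* and *Map3k11*. *Vegfc* had no close neighbour, with 0.26 for *Gm10382* and 0.27 for *5031414D18Rik*. The nearest to *Vegfa* were *Gm11793* and *Lsm2* (0.13 and 0.14), and to *Vegfb* they were *Ube2j1* and *Snx32* (0.07 and 0.09). *E030013I19Rik* and *Gm11793* had low values, with an FPKM of 0.17 to 2.71 and 0.27 to 3.25 over the 6 libraries. The scale of FPKM + 1 understates changes at such levels. Among the 10 genes, each receptor was nearest to another receptor, with differences of 0.11 to 0.15, and *Vegfc* was nearest to *Tek* at 1.11.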

How the data were processed

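Paired-end RNA-seq was performed on 3 sorted mural cell and 3 microvascular fragment samples. The authors aligned reads to NCBIM37 with TopHat2 2.0.4, removed duplicates with Picard 1.92 and deposited 1 FPKM value per gene and library, computed with Cufflinks 2.2.1. Any scaling between libraries by the authors is not given in the sources used here. FPKM are not counts, so no count test was used. Symbols and coordinates came from the GENCODE annotation of NCBIM37.

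log2(FPKM + 1) was fitted with limma 3.58.1 (R 4.3.3) with an intensity trend, without a block, over genes that reached 1 FPKM in 3 or more libraries. The fit was also run on simulated data with changes larger than those of the receptors, which cannot show how reliable the receptor calls are. Single values were compared with exact permutation tests (Python 3.11.15). The value of 1 fragment was estimated from genes with 1 transcript, where 98.1 to 99.2% of low values were whole multiples within 0.1. Estimated fragments use the longest transcript, and cover counting error only. The study divided the brains of 3 mice and sequenced 3 libraries per group, and the sources used here do not say which library came from which animal.

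The 10 genes and all lists were chosen with earlier results of these data known. The text names the 10 genes, the called genes of the pathway list, the 2 nearest genes of each and a few defining markers. Exceptions named after their values were seen are *Figf*, *Angpt4*, *Nrp1*, *Svep1*, *Ccbe1*, *Adamts3*, *Esm1*, *Hif1a*, *Egln1*, *Egln3*, *Mcph1* and single marker genes. The alternatives were another pseudocount, scaling, filter, threshold, trend or endothelial reference, the replicate block, leaving out each library, and, added after the data were seen, leaving out genes at 0 in every library of a group. Other marker lists showed 0 of 8 astrocyte, 1 of 7 oligodendrocyte progenitor, 1 of 7 neuron and 0 of 3 erythroid genes called.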

Additional observations from a re-analysis of the deposited data

How the results depend on the processing

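No alternative turned the direction of any of the 10 genes, and *Angpt1* and *Vegfc* passed in all 14. Against 2 higher and 4 lower of the 10 genes, no filter gave 1 higher (also 1 past the 2-fold limit) and 1 lower, no intensity trend 2 lower, and an adjusted p under 0.01 1 lower. Leaving out each library gave 2 higher (2 past the 2-fold limit) and 1 to 5 lower (1 past the limit). For the pathway list, against 4 higher and 8 lower, no filter gave 2 and 4, and an adjusted p under 0.01 gave 2 and 5. Past the 2-fold limit, no intensity trend and quantile normalization each gave 3 higher in place of 1. Leaving out each library gave 2 to 4 higher (1 past the limit) and 5 to 8 lower (3 to 5 past it). Over all genes, against 1383 higher and 1927 lower, no filter gave 902 higher, and an adjusted p under 0.01 gave 769 higher and 909 lower, with 845 lower past the 2-fold limit in place of 1493. A filter at an FPKM of 5 gave 948 of these, from fewer genes tested. Leaving out each library gave 885 to 1369 higher (711 to 1002 past the limit) and 1121 to 2144 lower (988 to 1751 past it). Quantile normalization moved the median log2 fold change of all genes from -0.12 to -0.01. The cause of these changes was not tested.

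The replicate block gave 2 of the 10 genes higher and 3 lower, and 1206 higher and 1651 lower over all genes. Same-numbered libraries correlated in their deviations from the group means with r of 0.082, 0.020 and 0.045, none over 0.1, although each library correlated best with its own number. The numbers are therefore not shown to pair the samples.

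The within-library difference of *Vegfb* to *Flt1*, 0.02, turned to -6.1e-04 with a pseudocount of 0.1, and lay between -0.23 and 0.34 when each library was left out. In the same way *Flt1* to *Kdr* lay between -0.11 and 0.073. Against the endothelial markers, leaving out each library gave -0.14 to 0.34 for *Vegfb*, -0.060 to 0.19 for *Kdr*, -0.0033 to 0.11 for *Flt1* and -0.062 to 0.026 for *Flt4*. With *Pecam1* and *Cdh5* alone as the reference, *Flt4* differed by 0.14 in place of -0.02.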
